A study of Mus musculus with 8 samples.

Results

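The 36 genes described here are markers of the subiculum, of retrohippocampal cortex and of the cortical layers, and they were measured in the hippocampus of mice that overexpressed miR-708-5p and of their controls. They were listed by name with the difference between the groups already known, so the group values below are a description and not a test of the list. All 36 were found among the 40659 gene identifiers of the count table, and all 36 were among the 17252 genes that passed the filter on low counts. PolyA-RNA sequencing was carried out on hippocampal RNA of 8 male wild-type C57BL/6JRj mice, 1 library per mouse. Of these, 4 received the recombinant adeno-associated virus (rAAV) hpCTL, which carries a control hairpin, and 4 received hp708, which carries a hairpin that gives rise to miR-708-5p. Both viruses were delivered by stereotactic surgery to dorsal and ventral hippocampus in mice of 7 to 8 postnatal weeks, and the whole hippocampi were taken 4 weeks later, the tissue being labelled as postnatal week 12 to 13. In both viruses the hairpin lies in the 3'UTR of EGFP behind the human synapsin promoter, so that only transduced neurons express it, and the share of neurons transduced in these tissue samples is not known here.

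The subiculum is the main output field of the hippocampal formation. Between CA1 and the retrohippocampal cortex, the simple cortex of the hippocampus gives way there to fully layered cortex, and the pyramidal cells of the subiculum share many genes with deep-layer cortical neurons. Layer 6b, the remnant of the embryonic subplate, is the thin deepest sheet of cortex and continues below the retrohippocampal areas. How much of this border a dissection of the hippocampus includes can differ from one tissue block to the next, and it was not measured here. In bulk tissue, fewer cells of a type and less RNA per cell cannot be told apart.

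A microRNA binds mRNAs mainly through its seed, and a fall of an mRNA with a matching site in its 3'UTR is the usual readout of such binding. The mature miR-708-5p of mouse (RefSeq, build GRCm38.p6) is shown because its seed, bases 2 to 8 in capitals, sets which sites were searched in the members.
mmu-miR-708-5p: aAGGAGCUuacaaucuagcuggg
On the transcript strand the seed matches are AGCTCCT (7mer-m8), AGCTCCTA (8mer) and GCTCCTA (7mer-A1), each of the 7mers being counted only where it is not part of an 8mer. In the longest annotated 3'UTR of each gene, 6 of the 36 members (16.7%) held at least 1 such site, against 3927 of 14808 tested genes with a 3'UTR (26.5%). An 8mer was found in 1 member (2.78%) and in 516 tested genes (3.48%), and the median 3'UTR length was 1573.5 bases for the members and 1865 bases for all tested genes. The members with an 8mer or a 7mer-m8 are shown as windows of 22 bases of GRCm39, 5′ to 3′ along the transcript, with the seed match in capitals. All of these windows lie in 3'UTR exons of the gene named.
Pamr1, chr2:102472382-102472403, plus strand, 8mer: catcgctgttctgaAGCTCCTA
Satb1, chr17:52046227-52046248, minus strand, 7mer-m8: tgttatttatttgtAGCTCCTg
Tshz2, chr2:169729576-169729597, plus strand, 7mer-m8: ctggatgccacccaAGCTCCTt
Rprm, chr2:53974217-53974238, minus strand, 7mer-m8: agagtagaattcttAGCTCCTg
Rxfp1, chr3:79611279-79611300, minus strand, 7mer-m8: aacattggagacccAGCTCCTg
Rxfp1, chr3:79610564-79610585, minus strand, 7mer-m8: gtaggcttgcagcaAGCTCCTt
Tshz2 held 2 further sites of the 7mer-A1 kind, and Npbwr1 held 1 site, also a 7mer-A1. The Rxfp1 sites and the Tshz2 sites lie in transcripts that end inside the gene, and the transcripts of these genes that run to the gene's end were not searched. The other 30 members held no seed match in the 3'UTR searched, and 24 of these 30 had a log2 fold change below 0, with a median of -0.13. Of the 6 members with a site, 6 had a log2 fold change below 0, with a median of -0.42. When the library labelled hp708 replicate 1 was left out, the medians were -0.91 with a site and -0.34 without. This split was made after the values were known and was not tested.

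The library totals ranged from 22606824 to 28462428 counts and were similar in both groups. Markers of the hippocampal fields were present in each library, with summed levels of 688 to 814 CPM for 6 CA1 genes and 296 to 496 CPM for 7 dentate granule cell genes, CPM being counts scaled to the TMM-normalized library size. The precursor gene Mir708 was at 0 counts in all 8 libraries, and the viral transcript is not among the genes analysed here, so the overexpression was not checked. Animal 1602, the library labelled hp708 replicate 1, carries a label conflict, since a qPCR sheet among the study's source data lists that animal as hpCTL. It was kept in hp708 as its sequencing label has it, and because of the conflict the fold changes of the members are given with and without it. Unless stated otherwise, the fold changes without it come from a new fit with newly estimated surrogate variables. Both the library and the adjustment thus differ between these values. This library was the highest of the 4 hp708 libraries for 22 of the 36 members, against 21% of all tested genes. The counting's strand setting is not stated. Ccn2 shares 36.52% of its exon bases with the antisense Gm15270, Lxn shares 22.47% with Gfm1 and Lypd1 shares 13.9% with Gpr39. Ntng2 shares 14.05% with 6530402F18Rik on the same strand. The levels of these 4 members may therefore hold reads of the neighbour or lack reads of the shared bases.

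Over the 36 members the log2 fold change of hp708 against hpCTL was below 0 for 30 genes, against 53.2% of all tested genes, with a median of -0.16 and a range from -1.12 for Nts to 0.35 for Cbln4. The median over all tested genes was -0.01. These fold changes come from edgeR's quasi-likelihood fit with 3 surrogate variables, which are estimates of unlabelled sources of variation. The study names the quasi-likelihood model in a figure legend, and edgeR's likelihood ratio test with 3 surrogate variables in its methods. No member passed a Benjamini-Hochberg false discovery rate (FDR) of 0.05 in that fit, where the lowest FDR of a member was 0.294 and 1 of all tested genes passed (0.0058%). The likelihood ratio test with the same surrogate variables called 3 members, Tshz2 (FDR 0.007), Nts (FDR 0.0204) and Rxfp1 (FDR 0.00157), among 127 genes. At an unadjusted p below 0.05 there were 10 members, against 7.7% of all tested genes. Of these, 8 were lower in hp708 (Tshz2, Nts, Fezf2, Cplx3, Hs3st2, Tbr1, Satb1 and Rxfp1), against 4.87%, and 2 were higher (Cbln4 and Bcl11b), against 2.82%. Without surrogate variables 30 members were again below 0, against 52.9% of all tested genes, the median was -0.18, and 3 members were at an unadjusted p below 0.05, against 1.81%, with 0 genes at an FDR below 0.05 (0%). The members were chosen with this comparison known, so nothing is read from these counts.

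The hp708 libraries did not lie together. Relative to the hpCTL mean of each gene, the mean log2 CPM of the 36 members was -0.18, 0.15, -0.05 and 0.08 in hpCTL replicates 1 to 4. In hp708 replicates 1 to 4 it was 0.16, -0.42, -0.38 and -0.58. Thus 3 hp708 libraries lay below each hpCTL library, while hp708 replicate 1 was level with the highest hpCTL library. Within hp708, replicate 4 held the lowest value of its group for 18 of the 36 members, while it was lowest for 25% of all tested genes. Within hpCTL, replicate 1 held the lowest value of its group for 18 of the 36 members, while it was lowest for 37.6% of all tested genes.

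**Figure D1:**
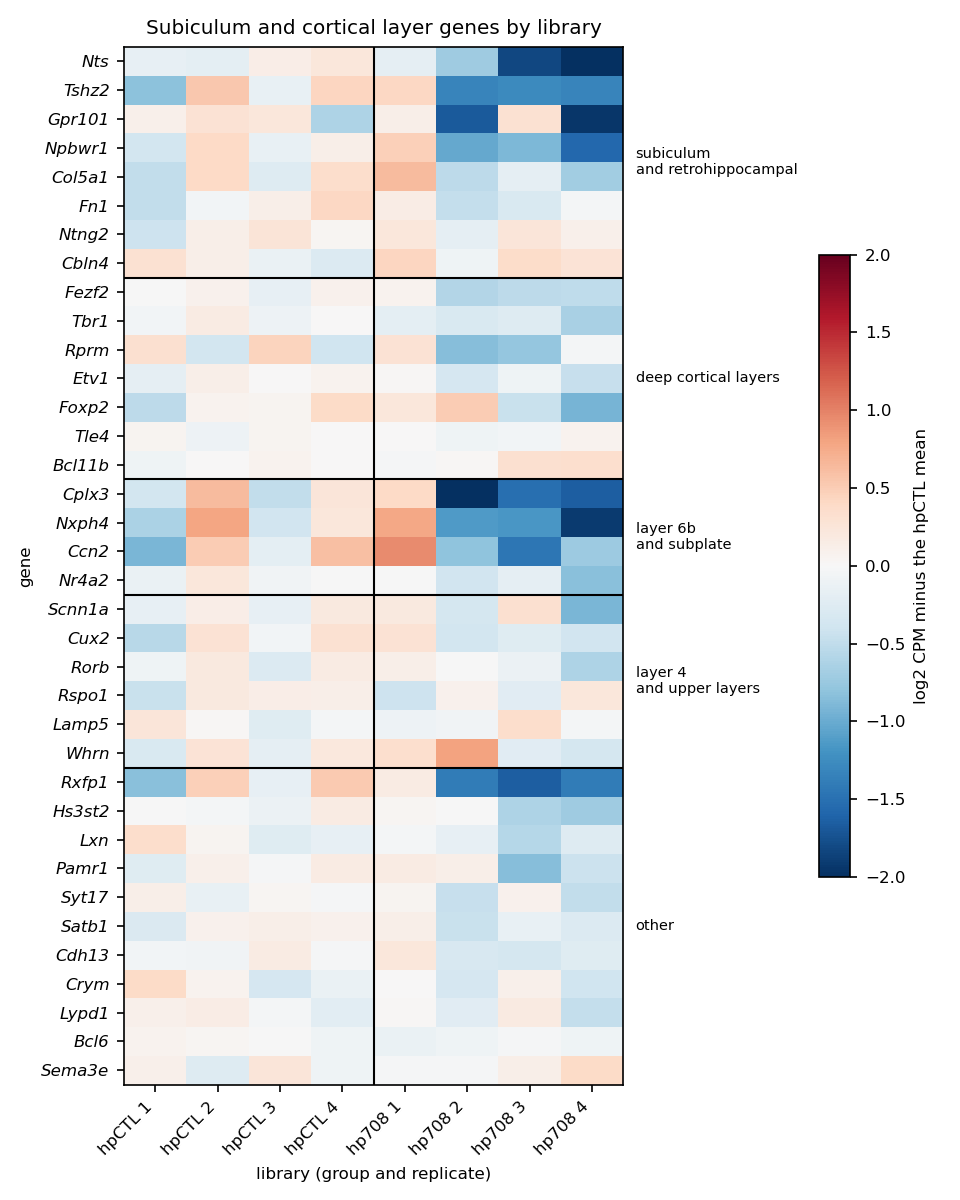
Heat map of the 36 members (vertical axis, grouped by the tissue they mark) in the 8 libraries (horizontal axis). Colour is log2 CPM minus the mean of the 4 hpCTL libraries for that gene, and the colour scale ends at -2.0 and 2.0. The blue blocks sit in hp708 replicates 2 to 4 for Nts, Tshz2, Npbwr1, Cplx3, Nxph4 and Rxfp1, and not in hp708 replicate 1.

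Leaving out hp708 replicate 1 changed the counts. With 3 surrogate variables, 4 members then passed an FDR of 0.05 in edgeR's quasi-likelihood test, against 0.321% of the 17425 genes tested in that fit. All 4 were lower in hp708, namely Tshz2 (log2 fold change -1.57, FDR 0.0239), Rxfp1 (-1.72, FDR 0.0262), Nr4a2 (-0.60, FDR 0.0262) and Tbr1 (-0.48, FDR 0.0276). The median over the members was -0.38, 31 members were below 0, against 51.3% of all tested genes, and 26 were at an unadjusted p below 0.05, against 12.2%. Without surrogate variables and without that library, 0 members and 0 genes (0%) passed an FDR of 0.05, while 14 members, against 3.42% of all tested genes, were at an unadjusted p below 0.05. In CPM, the groups did not overlap for 1 member, Tbr1, against 0.812% of all tested genes lower in hp708. Without hp708 replicate 1 they did not overlap for 10 members, all lower in hp708, against 3.12%. These were Cplx3, Nts, Rxfp1, Tshz2, Nxph4, Npbwr1, Fezf2, Tbr1, Nr4a2 and Cdh13. The highest hp708 library for most members is the one left out here, which by itself moves values apart in that direction. The members were also chosen with this comparison known, so the calls and counts without that library are a description only. With 3 surrogate variables and 1 library fewer, the fit also left few residual degrees of freedom.

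Transcription regulators made up 12 of the members. Of these, 11 had a log2 fold change below 0 (53.2% of all tested genes), with a median of -0.15 that became -0.42 without hp708 replicate 1. At an unadjusted p below 0.05, 4 were lower (4.87% of all tested genes) and 1 was higher (2.82%). Tshz2 (ENSMUSG00000047907, chr2:169474613-169913736, plus strand), a zinc finger homeobox factor that marks subicular and retrosplenial projection neurons, had 23, 58.8, 36.5 and 54.5 CPM in hpCTL replicates 1 to 4. In hp708 replicates 1 to 4 it had 53.8, 16.2, 16.8 and 16.1 CPM. The 3 low hp708 libraries lay within 1 CPM of each other and below all hpCTL libraries, while hp708 replicate 1 lay among the hpCTL values. The log2 fold change of Tshz2 was -0.73 (SE 0.16), and -0.74 (SE 0.44) without surrogate variables. Leaving out hp708 replicate 1 gave -1.57, and leaving out hpCTL replicate 2 gave -0.46.

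Fezf2, the zinc finger factor that directs the fate of subcerebral projection neurons of layer 5, showed the same arrangement at a smaller size. Its levels were 41.8, 44.6, 37.3 and 44.5 CPM in hpCTL and 44, 27.9, 29.2 and 29.6 CPM in hp708 replicates 1 to 4, with a log2 fold change of -0.29 (SE 0.07) that was -0.55 without hp708 replicate 1. Tbr1, the T-box factor of layer 6 and of early glutamatergic neurons, had 43.4, 50.4, 42.2 and 45.3 CPM in hpCTL and 39.4, 36.8, 37.6 and 28.7 CPM in hp708, where hp708 replicate 1 was again the highest. It was the only member for which all 4 hp708 libraries lay below all 4 hpCTL libraries, and its log2 fold change was -0.32 (SE 0.10), or -0.48 without hp708 replicate 1. For Nr4a2, an orphan nuclear receptor that marks layer 6b and is also induced by neuronal activity, the levels were 55, 70.1, 57.2 and 59.6 CPM in hpCTL and 60.2, 46.2, 53.2 and 33.7 CPM in hp708. Only hp708 replicate 1 of the hp708 libraries was inside the hpCTL range, and the log2 fold change was -0.27 (SE 0.14), or -0.60 without that library. Etv1, an ETS factor of layer 5 neurons, had 82.3, 101, 94.2 and 97.7 CPM in hpCTL and 94.6, 74.4, 88.4 and 68.2 CPM in hp708, so that hp708 replicates 2 and 4 lay below the hpCTL range and the other two inside it. Its log2 fold change was -0.16 (SE 0.08), or -0.39 without hp708 replicate 1.

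The other 7 regulators had smaller differences between the group means of log2 CPM, and their groups overlapped. Bcl11b, which is expressed in layer 5 and in addition in CA1 and dentate granule neurons, had a log2 fold change of 0.14 (SE 0.05), with 123 to 136 CPM in hpCTL and 128 to 163 CPM in hp708. It was the one regulator above 0, and without hp708 replicate 1 it was at 0.20. Satb1, a chromatin organizer of cortical interneurons and of some projection neurons, had -0.15 (SE 0.06), and Cux2, a homeobox factor of the upper layers, had -0.14 (SE 0.09). These were -0.38 and -0.50 without hp708 replicate 1. The values were -0.20 (SE 0.24) for Foxp2, a forkhead factor of layer 6, and -0.10 (SE 0.13) for Rorb, the nuclear receptor of layer 4, and became -0.45 and -0.34 without it. Bcl6, a repressor active in neurogenesis, and Tle4, a Groucho corepressor of layer 6 neurons, varied least, by 1.15-fold and 1.13-fold between the lowest and the highest of the 8 libraries, with log2 fold changes of -0.08 (SE 0.05) and -0.01 (SE 0.06), which were -0.06 and 0.02 without hp708 replicate 1. Thus, among the deep-layer regulators, Fezf2 and Tbr1 lay below the hpCTL range in 3 or 4 hp708 libraries, while Bcl11b and Tle4 did so in none.

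Among the 12 secreted, matrix and surface proteins, 9 had a log2 fold change below 0 (53.2% of all tested genes), with a median of -0.14 that became -0.32 without hp708 replicate 1. At an unadjusted p below 0.05, 1 was lower (4.87% of all tested genes) and 1 was higher (2.82%), near the shares over all genes. Nts (ENSMUSG00000019890), the precursor of the neuropeptide neurotensin and a marker of subicular neurons, had the largest fitted change of all members in the fit to all 8 libraries. Its levels were 5.68, 5.55, 6.97 and 7.44 CPM in hpCTL and 5.58, 3.87, 1.75 and 1.53 CPM in hp708 replicates 1 to 4. In hp708 replicates 2 to 4 Nts lay below all hpCTL libraries, and hp708 replicate 1 was within 0.1 CPM of the lowest of them. The log2 fold change was -1.12 (SE 0.24), and -1.0 (SE 0.37) without surrogate variables. It was -1.53 without hp708 replicate 1, where Cplx3 had the largest change at -2.04.

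Nxph4, a neurexophilin that binds neurexins and marks layer 6b, was one of the rarest members, with 6 counts in its lowest library. It had 0.714, 2.06, 0.861 and 1.35 CPM in hpCTL and 2.03, 0.478, 0.469 and 0.248 CPM in hp708 replicates 1 to 4. The log2 fold change of Nxph4 was -0.69 (SE 0.38), with -1.98 without hp708 replicate 1 and -0.24 without hpCTL replicate 2. Ccn2, a matricellular growth factor of layer 6b neurons, had 6.6, 17.8, 11 and 18.9 CPM in hpCTL and 24, 7.09, 4.52 and 7.48 CPM in hp708. For Ccn2 the highest of the 8 libraries was hp708 replicate 1 and only hp708 replicate 3 fell below the hpCTL range. The log2 fold change of Ccn2 was -0.37 (SE 0.23), with -1.19 without that highest library and -0.12 without hpCTL replicate 2. Both genes also varied widely among the hpCTL mice, where replicates 2 and 4 were higher than replicates 1 and 3. Col5a1, a fibrillar collagen that vascular and meningeal cells make too, followed the same order within hpCTL, at 14.9, 27.3, 17.5 and 26.5 CPM, and had 32.3, 14.4, 18.4 and 12.9 CPM in hp708 (log2 fold change -0.06, SE 0.13). That value near 0 rested on single libraries, being -0.69 without hp708 replicate 1 and 0.15 without hpCTL replicate 2.

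Cbln4, a cerebellin that organizes synapses, went the other way and had the highest log2 fold change of the members, 0.35 (SE 0.13). It had 9.28, 8.13, 6.81 and 6.2 CPM in hpCTL and 10.1, 7.04, 9.72 and 9.13 CPM in hp708, so that hp708 replicates 1 and 3 exceeded all hpCTL libraries and the other two lay among them. Its value without hp708 replicate 1 was 0.21. For Pamr1, a secreted protein with a peptidase-like domain, the levels were 11.4, 14.6, 13.3 and 15.2 CPM in hpCTL and 15.2, 14.7, 7.5 and 10.1 CPM in hp708, with only hp708 replicates 3 and 4 below the hpCTL range (log2 fold change -0.27, SE 0.13, and -0.38 without hp708 replicate 1). This is the member with the 8mer. The other 6 proteins of this kind had log2 fold changes between -0.24 and 0.09, and their groups overlapped. They were Fn1 (-0.16, SE 0.09), the matrix protein fibronectin, Cdh13 (-0.12, SE 0.11), a cadherin anchored in the membrane by lipid, Rspo1 (-0.24, SE 0.16), a Wnt agonist, Lypd1 (-0.04, SE 0.13), a Ly6 protein that binds nicotinic receptors, Ntng2 (0.09, SE 0.08), the axonal adhesion protein netrin-G2, and Sema3e (0.09, SE 0.11), an axon guidance ligand of plexin D1. Without hp708 replicate 1 their log2 fold changes, in the same order, were -0.34, -0.30, -0.03, -0.25, -0.08 and 0.24. Ntng2 changed sign in that fit, but it was at 0.05 without surrogate variables and without that library.

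All 4 receptors and channels had a log2 fold change below 0 (53.2% of all tested genes), with a median of -0.49 that became -1.43 without hp708 replicate 1. Only Rxfp1 was at an unadjusted p below 0.05 (7.7% of all tested genes). Rxfp1 (ENSMUSG00000034009, chr3:79548868-79645280, minus strand), the receptor of the peptide hormone relaxin, had 9.03, 22.7, 14.6 and 23.4 CPM in hpCTL and 18.2, 6.09, 5.16 and 6.11 CPM in hp708. As with Tshz2, the hp708 replicates 2 to 4 lay close together below all hpCTL libraries, and hp708 replicate 1 lay inside the hpCTL range. Its log2 fold change was -0.96 (SE 0.17), and it was -0.96 (SE 0.44) without surrogate variables and -1.72 without hp708 replicate 1. Npbwr1, the receptor of neuropeptides B and W, had 1.82, 3.15, 2.13 and 2.59 CPM in hpCTL and 3.33, 1.13, 1.24 and 0.743 CPM in hp708, a log2 fold change of -0.57 (SE 0.25), or -1.44 without hp708 replicate 1. That library was the highest of all 8 libraries and the other 3 hp708 libraries were the lowest.

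The remaining receptor genes split the hp708 libraries differently. Gpr101, an orphan G protein-coupled receptor, had 12.2, 13.8, 13.2 and 7.36 CPM in hpCTL and 12.3, 3.48, 14 and 2.89 CPM in hp708. Thus hp708 replicates 2 and 4 were low and replicate 3 was the highest of all libraries. Its log2 fold change was -0.42 (SE 0.37). It was -1.42 without hp708 replicate 1, or -0.78 when surrogate variables were left out too, and -0.11 without hp708 replicate 4. Scnn1a, the alpha subunit of the epithelial sodium channel and a marker of layer 4, had 6.25, 7.7, 6.28 and 8.04 CPM in hpCTL and 8.01, 5.48, 8.78 and 3.68 CPM in hp708. It too was low in hp708 replicates 2 and 4 and highest in replicate 3. Its log2 fold change of -0.02 (SE 0.23) became -0.52 without hp708 replicate 1, or -0.24 when surrogate variables were left out too. It was 0.12 without hp708 replicate 4.

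Among the 8 vesicle, membrane, cytosolic and enzyme genes, 6 had a log2 fold change below 0 (53.2% of all tested genes), with a median of -0.14 that became -0.27 without hp708 replicate 1. At an unadjusted p below 0.05, 2 were lower (4.87% of all tested genes). Cplx3 (ENSMUSG00000039714, chr9:57507275-57513575, minus strand), a complexin that clamps SNARE complexes before release and marks layer 6b in cortex, had 4.11, 8.35, 3.77 and 6.31 CPM in hpCTL and 7.1, 1.17, 1.83 and 1.65 CPM in hp708. The 3 low hp708 libraries lay below all hpCTL libraries, and the difference between the group means of log2 CPM, -1.22, was the largest of the members, next to a within-group SD of 0.87. Its log2 fold change was -0.95 (SE 0.27), and it was -2.04 without hp708 replicate 1 and -0.58 without hpCTL replicate 2. Rprm, a p53-induced inhibitor of the cell cycle that marks layer 6 and subiculum, had 37.9, 23.5, 41.2 and 23.1 CPM in hpCTL. In hp708 it had 37, 16.9, 17.7 and 29.7 CPM, where replicates 2 and 3 lay below the hpCTL range. The log2 fold change of Rprm was -0.19 (SE 0.30), with -0.38 without hp708 replicate 1 and 0.16 without hpCTL replicate 3.

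For Hs3st2, a heparan sulfate sulfotransferase, 2 hp708 libraries matched hpCTL and the other two did not. It had 10.4, 10.1, 9.56 and 11.6 CPM in hpCTL and 10.7, 10.3, 6.73 and 6.32 CPM in hp708, a log2 fold change of -0.29 (SE 0.10), or -0.43 without hp708 replicate 1. Lxn, the carboxypeptidase inhibitor latexin, had 55.1, 45, 36.8 and 38.6 CPM in hpCTL and 42.2, 38.8, 29.1 and 36.1 CPM in hp708, with replicates 3 and 4 below the hpCTL range (log2 fold change -0.20, SE 0.12, and -0.23 without hp708 replicate 1). Syt17, an atypical synaptotagmin, had 120, 99.6, 114 and 109 CPM in hpCTL and 114, 80.3, 118 and 78.4 CPM in hp708. As for Gpr101, replicates 2 and 4 were the low hp708 libraries, and the log2 fold change was -0.09 (SE 0.09), or -0.31 without replicate 1. The remaining 3 overlapped and were near 0, namely Crym, a cytosolic thyroid hormone binding protein (-0.03, SE 0.09), Whrn, a scaffold with PDZ domains (0.08, SE 0.11), and Lamp5, a LAMP family protein of dendrites and of a class of interneurons (0.08, SE 0.11). Their log2 fold changes without hp708 replicate 1 were -0.20, -0.01 and 0.08. Whrn was at 0.16 when surrogate variables were left out too.

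**Figure D2:**
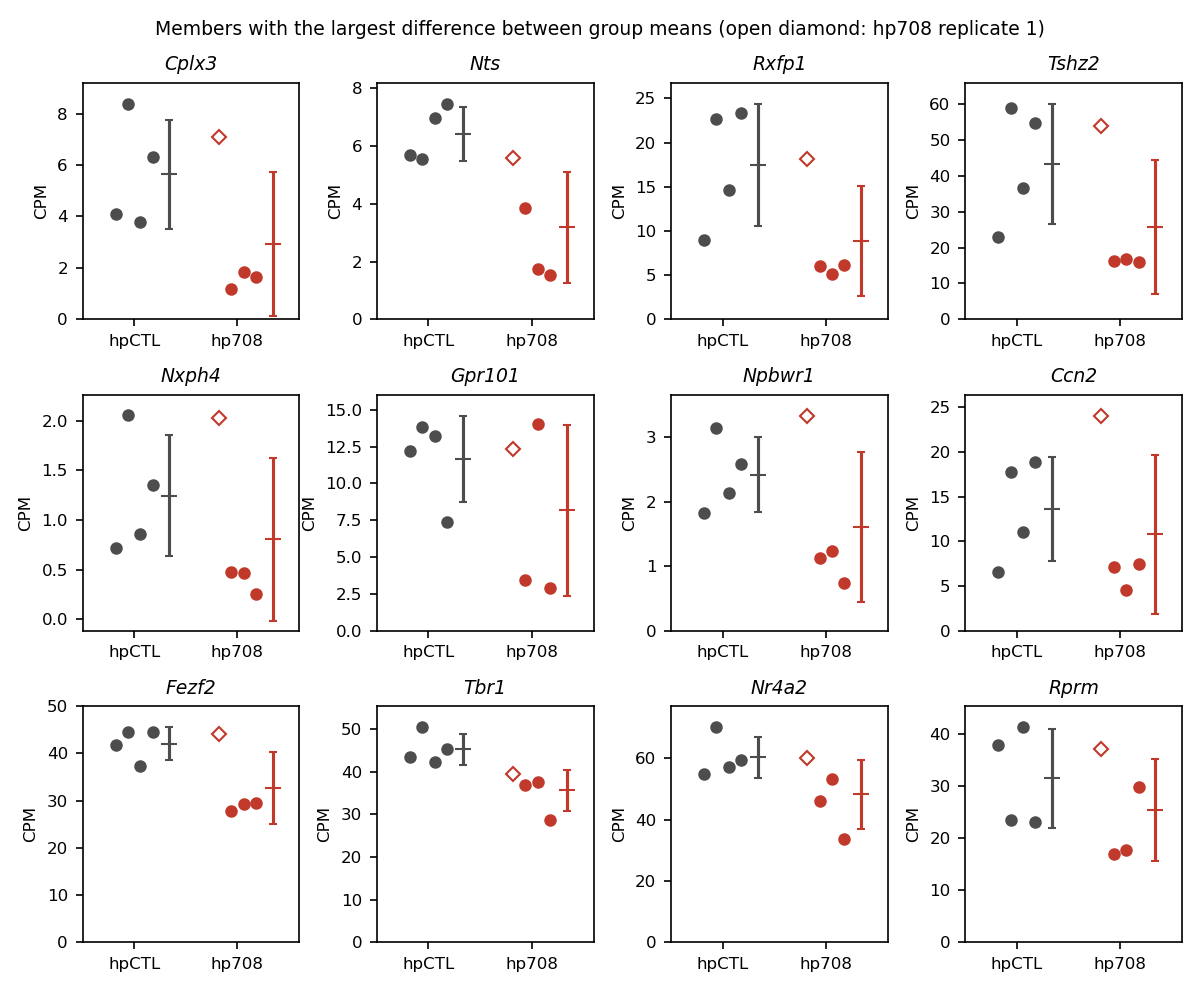
CPM (vertical axis, linear, on a scale of its own in each panel) of the 12 members with the largest difference between group means of log2 CPM, in the hpCTL and hp708 libraries. Points are single libraries, the open diamond is hp708 replicate 1, and the bar beside each group is the mean ± SD of its 4 libraries. For Cplx3, Nts, Rxfp1, Tshz2, Nxph4, Npbwr1, Fezf2 and Nr4a2 the 3 filled hp708 points lie below all hpCTL points and the diamond lies above them.

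**Figure D3:**
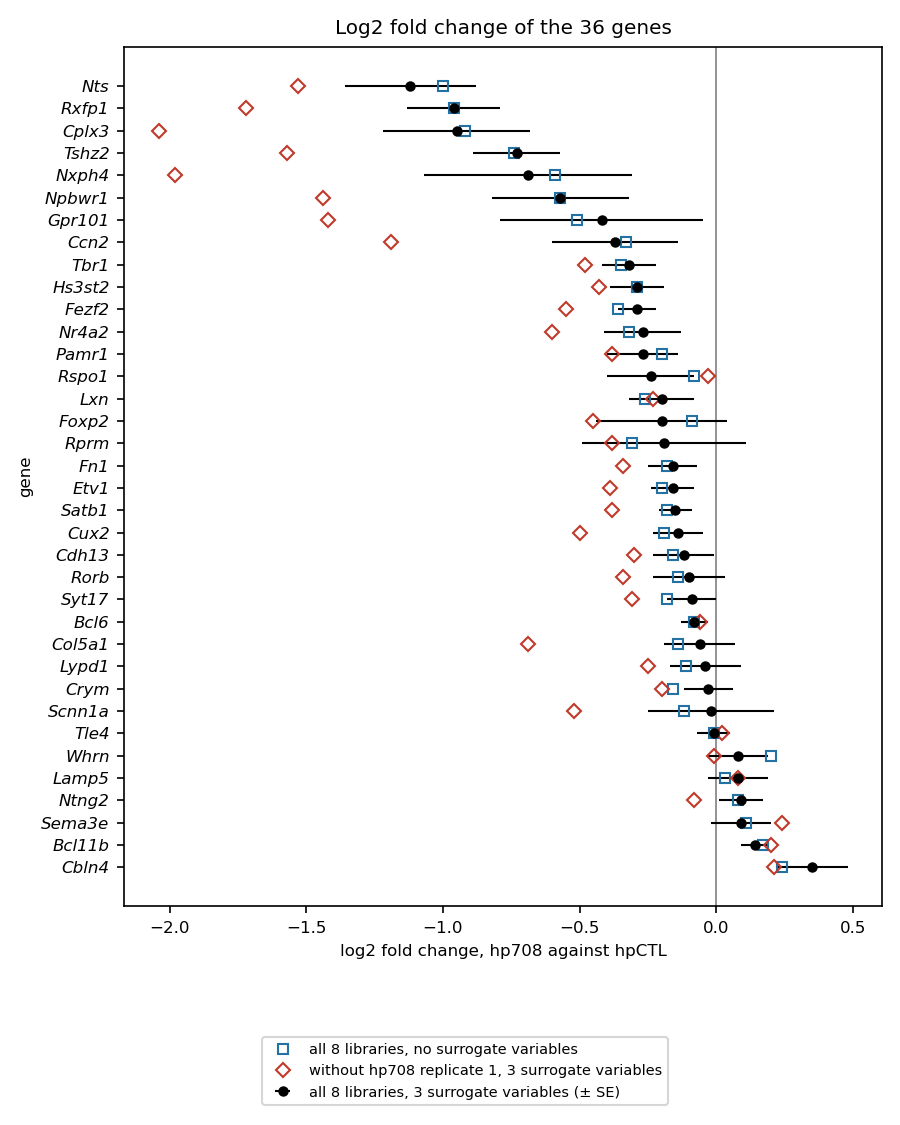
Log2 fold change of hp708 against hpCTL (horizontal axis) for the 36 members (vertical axis). Filled points with bars are the fit to all 8 libraries with 3 surrogate variables ± SE, squares are the fit without surrogate variables, and diamonds are the fit with 3 surrogate variables but without hp708 replicate 1. The diamonds of Cplx3, Nxph4, Rxfp1, Tshz2, Nts, Npbwr1, Gpr101 and Ccn2 lie between -2.04 and -1.19, to the left of the corresponding points.

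By the tissue they mark, the members of layer 6b had the lowest values. The 4 layer 6b and subplate genes (Ccn2, Nr4a2, Nxph4 and Cplx3) all had a log2 fold change below 0, with a median of -0.53 that was -1.59 without hp708 replicate 1. Relative to the hpCTL mean, hpCTL replicates 1 to 4 had a mean log2 CPM of -0.51, 0.54, -0.29 and 0.26 over these genes. The hp708 replicates 1 to 4 had 0.53, -1.11, -1.07 and -1.28. This set thus spread over more than 1 log2 unit among the control mice alone, and hp708 replicate 1 equalled the highest control. Of the 8 subiculum and retrohippocampal genes, 6 were below 0, with a median of -0.29 (7 and -1.06 without hp708 replicate 1), and their mean deviations were -0.29, 0.20, 0.01 and 0.09 in hpCTL and 0.28, -0.75, -0.44 and -0.90 in hp708. The 7 deep-layer genes had a median of -0.19 with 6 below 0 (-0.39 with 5 below 0 without hp708 replicate 1), and deviations of -0.07, -0.01, 0.05 and 0.02 in hpCTL and 0.06, -0.23, -0.26 and -0.31 in hp708. These differed little among the control mice. The 6 genes of layer 4 and the upper layers had a median of -0.06 with 4 below 0 (-0.19 with 5 below 0 without that library), and only hp708 replicate 4, at -0.35, lay outside the hpCTL range of -0.22 to 0.18. For the 11 members that mark no single one of these tissues the median was -0.12, with 10 below 0, and -0.30 without hp708 replicate 1.

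Other regional lists were set beside the members, and none of their genes passed an FDR of 0.05 when tested with 3 surrogate variables in the quasi-likelihood model of edgeR. Of 24 further subiculum, entorhinal and cortical layer genes that are no members, 22 were tested. Their median log2 fold change was -0.04, and 12 were below 0 (53.2% of all tested genes), while at an unadjusted p below 0.05 there were 3 lower genes (4.87%) and 0 higher ones (2.82%). The 3 were Slc17a6 (-0.75, SE 0.17), the vesicular glutamate transporter VGLUT2 of subicular, entorhinal and thalamic neurons, Sla (-0.42, SE 0.14), an adaptor protein, and Deptor (-0.24, SE 0.10), an inhibitor of mTOR. Slc17a6 had 11.4, 18, 15.1 and 19.2 CPM in hpCTL and 15.8, 11.6, 6.95 and 4.83 CPM in hp708, so hp708 replicates 3 and 4 lay below the hpCTL range. Without hp708 replicate 1 the median of the list was -0.25, 16 of 22 were below 0, and Slc17a6 (-1.25, FDR 0.0262) and Parm1 (-0.64, FDR 0.0492) passed an FDR of 0.05 in the same edgeR test. The mean deviation of this further list in hp708 replicates 1 to 4 was 0.17, -0.12, -0.12 and -0.40, with hpCTL replicates between -0.23 and 0.14. The median of this list was nearer 0 than that of the members, and both were drawn up with results of these data known.

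The lists for the fields of the hippocampus itself had medians near or above 0. The 6 CA1 genes had a median log2 fold change of -0.05, with mean deviations in hp708 between -0.17 and 0.05 and in hpCTL between -0.08 and 0.10. All 5 CA2 genes and all 5 CA3 genes were above 0, with medians of 0.21 and 0.29, while 53.2% of all tested genes were below 0. The 7 dentate granule genes had a median of 0.16, and 1 of them was below 0. The medians without hp708 replicate 1 were -0.04 for CA1, 0.43 for CA2, 0.49 for CA3 and 0.34 for dentate granule genes. At an unadjusted p below 0.05, Gpr161 of the CA1 list was lower (4.87% of all tested genes). Cacng5 of CA2, Iyd, Bok and Homer3 of CA3 and Pdzd2 of the dentate list were higher (2.82%). Without surrogate variables 1 gene of the CA2 list and 0 of the CA1, CA3 and dentate lists were at an unadjusted p below 0.05, against 1.81% of all tested genes. In hp708 replicates 2 and 4, the libraries with the lowest subiculum values, the CA2 deviations were 0.53 and 0.48 and the CA3 deviations were 0.47 and 0.30. In hpCTL the CA2 deviations ranged from -0.20 to 0.26 and the CA3 deviations from -0.16 to 0.33, and the groups overlapped for both lists, with CA2 at 0.04 and 0.10 in hp708 replicates 1 and 3. Their part in the values of the members was not tested.

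**Figure D4:**
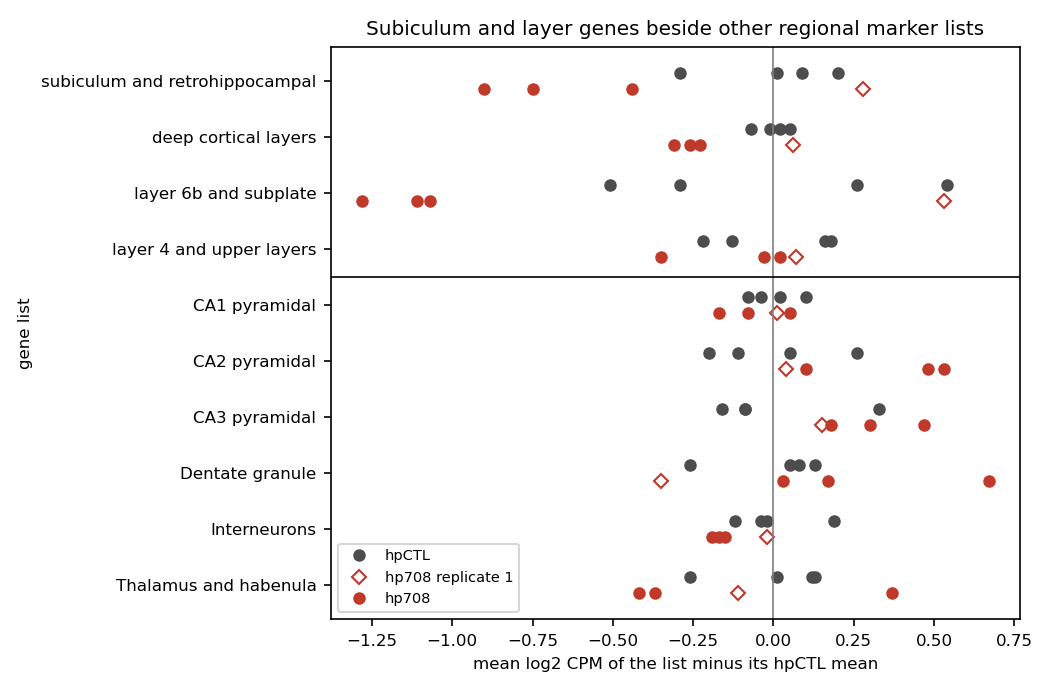
Mean log2 CPM of a gene list in each library minus its hpCTL mean (horizontal axis) for 4 sets of the members (above the line) and 6 lists of hippocampal, interneuron and thalamic markers (below the line). Points are libraries and the open diamond is hp708 replicate 1. For layer 6b and subplate genes the 3 filled hp708 points lie between -1.28 and -1.07, left of all hpCTL points, while for the CA3 list the hp708 points lie between 0.15 and 0.47, with hpCTL replicate 1 among them at 0.33.

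Markers of tissue next to the hippocampus also differed between libraries. The 6 choroid plexus genes summed to 51.9 to 2060 CPM in hpCTL and to 104 to 4390 CPM in hp708. Their mean deviations were -2.46, 1.64, -1.13 and 1.95 in hpCTL and 2.43, 2.68, -1.48 and -1.02 in hp708, so that hpCTL replicates 2 and 4 and hp708 replicate 1, the libraries with the highest layer 6b values, were also high in choroid plexus genes. In hp708 replicate 2 the choroid plexus genes were high and the layer 6b genes low. The 5 thalamus and habenula genes summed to 56 to 79.1 CPM in hpCTL and to 57.5 to 102 CPM in hp708, and the 5 striatum genes to 50 to 60.6 and 42.8 to 81.7 CPM. No gene of these lists was at 0 in all libraries, and the part of such tissue in the values of the members was not tested.

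Per kilobase of exon, the members spanned a wide range of levels in hpCTL, from 61.4 CPM per kilobase for Crym to 0.084 for Foxp2. After Crym the highest were Lxn with 24, Rprm with 21.5, Syt17 with 14.1, Bcl11b with 13.8 and Fezf2 with 11.4 CPM per kilobase. The 8 members with the largest differences between the group means of log2 CPM were at 1.84 for Cplx3, 4.69 for Nts, 1.25 for Rxfp1, 5.33 for Tshz2, 0.727 for Nxph4, 2.15 for Gpr101, 0.656 for Npbwr1 and 4.25 CPM per kilobase for Ccn2, and Fezf2 came next. In position, 9 of the 36 members (25%) lie on chromosome 2, which holds 1302 of 17162 named tested genes (7.59%). They are Tshz2, Cbln4, Ntng2, Col5a1, Rprm, Nr4a2, Tbr1, Pamr1 and Lamp5. They start between base 27776397 and base 171878142 of the chromosome, and 6 of them were below 0 and 3 above.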

How the data were processed

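PolyA-RNA from whole hippocampi was sequenced in 4 hpCTL and 4 hp708 mice. The authors mapped reads to GRCm39 with STAR 2.7.8a, counted them per gene with featureCounts 1.6.4 and deposited raw counts in 1 table, with 0 per-sample columns left unused here. Strand and multi-mapping settings are not given in the sources used here. Genes were named from a later GENCODE release than the authors used, which matched 39641 of 40659 identifiers.

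Genes of the deposited table were kept by filterByExpr and fitted with edgeR 4.0.16 in R 4.3.3 (TMM, quasi-likelihood test as in edgeR 3, group plus 3 surrogate variables from sva 3.50.0, Benjamini-Hochberg adjustment over all 17252 genes). The standard error is the log2 fold change divided by the root of the test statistic. Log2 CPM used a prior count of 2. The members and the gene lists were chosen with earlier results of these data known. All 36 members were accounted for, and values in every library were given for the 20 with the largest absolute difference between group means of log2 CPM and for members whose groups did not overlap. Samples were grouped by their labels. Where surrogate variables were fitted, p-values and standard errors refer to the spread between mice that was left after them. The 3 surrogate variables accounted for 74.8% of the variance over the 8 libraries of the mean member deviation. Libraries of a group differed by more than sampling noise (chi-square per degree of freedom 10 to 46.2). Deviations of same-numbered libraries correlated between -0.04 and 0.02, so no pairing by number was seen. A small effect shared by same-numbered mice would not show in these correlations.

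On simulated counts of 17027 genes with the groups of this comparison, 102 of 130 genes changed at least 2-fold were recovered. Of changed genes of any size 116 of 196 were recovered, and 10 calls were false. The simulated libraries differed by independent noise per gene and held no hidden factor shared by genes. These rates therefore do not show how the fit with surrogate variables performs on the real libraries. The alternatives varied the surrogate variables, test, tool (DESeq2 1.42.0), normalization, filter, replicate block and the libraries included. Seed sites were searched in the longest 3'UTR per gene of GRCm39. Marker lists of CA1, CA2, CA3, dentate granule cells, interneurons, thalamus and habenula, striatum, choroid plexus, oligodendrocytes, astrocytes, microglia and interferon response were given as values.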

Additional observations from a re-analysis of the deposited data

Results flagged for a closer look

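Dixon's test at the 95% level was applied to the members in each group of 4 libraries, 74 groups in all with the mean over members, and found a library far from the other 3 in 11 of them. Chance gives about 3.7 in as many independent groups, but the members were chosen from this readout and share their libraries, so the groups are not independent and the count of 11 is a description only. In 8 of the 11 that library was hp708 replicate 1, which was the highest of its group each time. Its CPM was 53.8 for Tshz2 (other hp708 libraries 16.1 to 16.8), 44 for Fezf2 (27.9 to 29.6), 24 for Ccn2 (4.52 to 7.48) and 2.03 for Nxph4 (0.248 to 0.478). It was 7.1 for Cplx3 (1.17 to 1.83), 27.3 for Cux2 (17.1 to 18.8), 18.2 for Rxfp1 (5.16 to 6.11) and 61.5 for Cdh13 (41.1 to 44.2). For these 8 genes hp708 replicate 1 was inside the hpCTL range or, for Ccn2 and Cdh13, above it. This is the animal with the label conflict, and its group was not changed on account of these values.

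The other 3 were single genes. Lamp5 was high in hp708 replicate 3, at 39.3 CPM, the other hp708 libraries having 28.8 to 30.1. In hpCTL replicate 1, Rspo1 was low at 1.61 CPM (2.4 to 2.54 in the others) and so was Satb1 at 61.7 CPM (79.5 to 81.4).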

How the results depend on the processing

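The sign of the members' differences depended little on the processing, and the calls depended on it strongly. Over 8 alternatives 282 of 287 member fold changes kept their sign (Nxph4 could not be tested with at least 10 counts in every library), and over 16 fits that each left out 1 library 529 of 576 did. Calls over all genes at an FDR below 0.05, 1 in the quasi-likelihood test with 3 surrogate variables, became 127 with edgeR's likelihood ratio test, 96 with DESeq2, 12 with no filter, and 0 with no surrogate variable, with 1 surrogate variable or with at least 10 counts in every library. Both the likelihood ratio test and DESeq2 called 3 members, Tshz2, Nts and Rxfp1, all lower. Members at an unadjusted p below 0.05, 10 as reported, became 3 with no surrogate variable, 4 with 1 and 6 with the likelihood ratio test, where all tested genes went from 7.7% to 1.81%, 3.44% and 6.01%. With at least 10 counts in every library they rose to 15 of 35 (5.72% of all tested genes), and the median fell from -0.16 to -0.27. The cause was not tested.

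Leaving out 1 library at a time, genes called ranged from 0 to 56, members called from 0 to 4, members at an unadjusted p below 0.05 from 6 to 26 with 3 surrogate variables and from 1 to 14 without them (5 without hpCTL replicate 1, against 1.99% of all tested genes, a share that ranged from 1.37% to 3.42% over these fits), members below 0 from 25 to 31 and their median from -0.38 to -0.11. Members at an unadjusted p below 0.05 with 3 surrogate variables numbered 26 without hp708 replicate 1, 20 without hpCTL replicate 1, 17 without hp708 replicate 2 and 6 without hpCTL replicate 3, against 12.2%, 9.67%, 12% and 2.98% of all tested genes. Without surrogate variables no single library left out led to a gene called. With 3 surrogate variables, some omissions moved members nearer 0. Npbwr1 was at -0.33 and Nr4a2 at -0.16 without hp708 replicate 4, and Cux2 was at 0 without hpCTL replicate 2.

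With the replicate number as a block and no surrogate variables, 1 gene and 0 members were called and 4 members were at an unadjusted p below 0.05, against 1.58% of all tested genes. A block with 3 surrogate variables left no residual degrees of freedom and was not run. With 4 mice per group the precision was set by the spread between mice, or by what the surrogate variables left of it. For Nxph4 and Foxp2, which had 6 and 17 counts in their lowest library, depth set it as well.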

Other observations

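The 7 interferon response genes (Ifit1, Ifit3, Isg15, Usp18, Irf7, Oasl2 and Bst2) had log2 fold changes below 0 in edgeR's quasi-likelihood fit with 3 surrogate variables, with a median of -0.70, and 7 of 7 were at an unadjusted p below 0.05 (4.87% of all tested genes were so and lower) with 0 at an FDR below 0.05. Without surrogate variables the median was -0.23 and 0 of the 7 were at an unadjusted p below 0.05 (1.81% of all tested genes). With 3 surrogate variables but without hp708 replicate 1 it was -0.09. Their summed level was 92.9 to 236 CPM in hpCTL and 83.6 to 219 CPM in hp708, and the libraries low in it were hpCTL replicate 1 and hp708 replicates 1 and 3, with mean deviations of -0.93, -1.08 and -0.74. The 5 microglia genes had a median of -0.23 with 3 surrogate variables and -0.07 without, and 0.04 without hp708 replicate 1. With 3 surrogate variables and all libraries, Tmem119, Csf1r and C1qa were lower at an unadjusted p below 0.05 (4.87% of all tested genes). The medians with 3 surrogate variables were 0.04 for 6 oligodendrocyte genes, 0.02 for 5 astrocyte genes, 0.29 for 6 choroid plexus genes, -0.10 for 5 thalamus and habenula genes, 0.11 for 5 striatum genes and -0.07 for 6 interneuron genes, of which Sst and Vip were lower at an unadjusted p below 0.05 (again 4.87%). Leaving out hp708 replicate 1 turned the choroid plexus median to -0.58, and gave 0.38 for oligodendrocytes, 0.04 for astrocytes, -0.01 for thalamus and habenula, 0.21 for striatum and -0.06 for interneurons.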
